A study of Mus musculus with 8 samples.

Results

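The cytokine genes of the IL-6, IL-12 and IL-10 groups were followed in peritoneal macrophages that lacked FURIN and in their wild type counterparts. The list held 10 genes: Il6, Lif and Osm of the IL-6 group, Il12a, Il12b, Il23a, Il27 and Ebi3 of the IL-12 group, the receptor chain Il12rb1, and Il10. Probes were assigned to them by the transcript accession on the array, and the brightest probe over all arrays stood for a gene. Of the 10 genes, 9 had such a probe among 37018 genes and transcripts, all 9 passed the minimum on mean intensity, and Il12b was not analysed here.

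Peritoneal cells of C57BL/6 mice were cultured, washed so that adherent cells remained, and either left unstimulated or given lipopolysaccharide (LPS, a cell wall component of Gram-negative bacteria) at 1 µg/ml for 1 h, 4 h or 24 h. The FURIN KO animals were LysMCre-fur(fl/fl) mice, in which a Cre recombinase at the lysozyme M locus deletes the floxed gene, and the WT animals were littermates without the deletion. Lysozyme M is used by macrophages and granulocytes, so lymphocytes in the dish keep the gene, and the age of the animals on the arrays is not given in the sources used here. Each of 8 two-colour arrays carried KO RNA against WT RNA of the same time point, with 2 arrays at each of the 4 time points. The KO RNA carried the Cy5 dye on the replicate 1 arrays and the Cy3 dye on the replicate 2 arrays. The labels call the 2 replicates biological.

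Cytokines of the IL-6 group act through the shared receptor chain gp130 and the kinases and transcription factors of the JAK and STAT families, chiefly STAT3. Cytokines of the IL-12 group are pairs of subunits made by different genes: IL-12 joins the products of Il12a and Il12b, IL-23 those of Il23a and Il12b, and IL-27 those of Il27 and Ebi3. IL-10 also acts through STAT3 and restrains the output of activated macrophages. In macrophages the transcripts of many of these genes are known to be raised when Toll-like receptor 4 binds LPS, through NF-kB, AP-1 and C/EBP factors.

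The RefSeq promoter table (build GRCm38.p6) held 6 promoters of 5 member genes. The 250 bases before the start are shown for the 4 promoters that held an NF-kB match. They were not picked for a shared time course. The promoter of Il12b and the first listed start of Il12a held no match to any of the letters and are not shown. Each is on the plus strand: Il6 at chr5:30012864-30013113, Lif at chr11:4257318-4257567, Ebi3 at chr17:55952373-55952622 and the second of the 2 listed starts of Il12a at chr3:68691174-68691423. Capitals mark matches, on either strand, to the letters of an NF-kB site (GGG, any 5 bases, then CC), of AP-1 (TGANTCA) or of C/EBP (TTNNGCAA).
Il6: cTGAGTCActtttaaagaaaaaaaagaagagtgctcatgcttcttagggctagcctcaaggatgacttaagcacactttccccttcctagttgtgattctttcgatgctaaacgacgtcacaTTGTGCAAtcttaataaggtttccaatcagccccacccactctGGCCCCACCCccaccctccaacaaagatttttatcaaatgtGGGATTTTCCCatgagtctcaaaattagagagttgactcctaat
Lif: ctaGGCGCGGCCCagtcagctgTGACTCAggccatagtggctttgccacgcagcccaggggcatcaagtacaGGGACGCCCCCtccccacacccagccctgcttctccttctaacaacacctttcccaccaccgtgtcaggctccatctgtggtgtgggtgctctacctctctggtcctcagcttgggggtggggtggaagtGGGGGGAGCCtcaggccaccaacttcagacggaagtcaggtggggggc
Ebi3: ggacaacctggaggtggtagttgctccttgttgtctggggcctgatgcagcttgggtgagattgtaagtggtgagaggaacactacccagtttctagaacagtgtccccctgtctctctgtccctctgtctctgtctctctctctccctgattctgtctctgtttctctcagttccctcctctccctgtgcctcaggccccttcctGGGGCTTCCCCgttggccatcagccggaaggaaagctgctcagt
Il12a: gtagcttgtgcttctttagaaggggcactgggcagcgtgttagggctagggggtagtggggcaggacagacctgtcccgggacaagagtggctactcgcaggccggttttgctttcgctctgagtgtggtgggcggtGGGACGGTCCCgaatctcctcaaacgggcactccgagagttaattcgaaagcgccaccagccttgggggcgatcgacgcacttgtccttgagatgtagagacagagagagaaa
The Il6 and Ebi3 sequences each carried overlapping NF-kB matches on both strands between 44 and 34 bases before the start. Il6 alone of the 6 promoters also held a C/EBP match, 128 to 121 bases before the start, and Il6 and Lif held an AP-1 match. NF-kB letters stood in 4 of the 6 member promoters and in 45.8% of the 32851 windows of the table, AP-1 letters in 2 of 6 and 6.75%, and C/EBP letters in 1 of 6 and 9.56%. Neither the letters of an interferon response element (GAAA, any 2 bases, GAAA), nor STAT letters (TTCNNNGAA), nor TATAAA were in any of the 6, against 2.98%, 7.02% and 12.4% of all windows. A match is a run of letters and no evidence of binding.

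The targeted gene was read first. The log2 KO/WT ratio of Furin was -0.59 and -0.85 in unstimulated cells, -0.56 and -0.55 at 1 h and -0.59 and -0.69 at 24 h. At 4 h it was 0.00 and 0.33, so the RNA labelled KO at 4 h was not lower for Furin. The 4 h ratios below compare RNA labelled KO with RNA labelled WT. Likewise, LPS changes, bounds and counts that use KO values at 4 h are those of RNA labelled KO. Lyz2, whose locus carries the Cre, was lower in the KO channel on all 8 arrays, by -1.04 and -1.13 at 4 h. Whether the Furin probe lies inside the deleted part was not analysed. Between 42.5% and 50.3% of gene probes were well above background in a channel and no probe was saturated. All 6 measured macrophage markers were well above background in all 16 channels. So were all 6 markers of large peritoneal macrophages, all 7 B cell markers and all 6 mast cell markers. Other lists were mixed. Of the T and natural killer cell markers, Ncr1 was well above background in no channel and Nkg7, Cd3e, Cd3g, Cd2 and Lck in all 16. Of the neutrophil markers, S100a9 and Ngp were so in none and S100a8, Camp and Mmp8 in all 16. Of the dendritic cell markers, Xcr1 was so in none and Flt3, Zbtb46 and Siglech in all 16, and of the eosinophil markers, Epx and Prg2 in none, Ear1 in 10 and Siglecf in 12. In such bulk RNA, fewer cells of a type and less RNA per cell cannot be told apart.

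LPS raised every measured member in at least part of the time course. In the WT cells 6 of 9 members were called higher at 1 h, 9 of 9 at 4 h and 7 of 9 at 24 h, at an adjusted p under 0.05 in limma's separate-channel fit, and the counts were the same in the KO cells. No member was called lower against unstimulated cells. Over all genes and transcripts, 8.52% were called at 1 h in the WT, 34.8% at 4 h and 30.5% at 24 h, of which 3.39%, 15.5% and 13.5% were higher. In the KO cells 7.48%, 36% and 28.7% were called, with 3.1%, 16.2% and 12.7% higher. The median log2 change of the 9 members was 2.65, 4.25 and 1.99 in the WT and 2.73, 4.63 and 2.45 in the KO, against medians between -0.02 and 0.00 over all genes and transcripts.

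**Figure D1:**
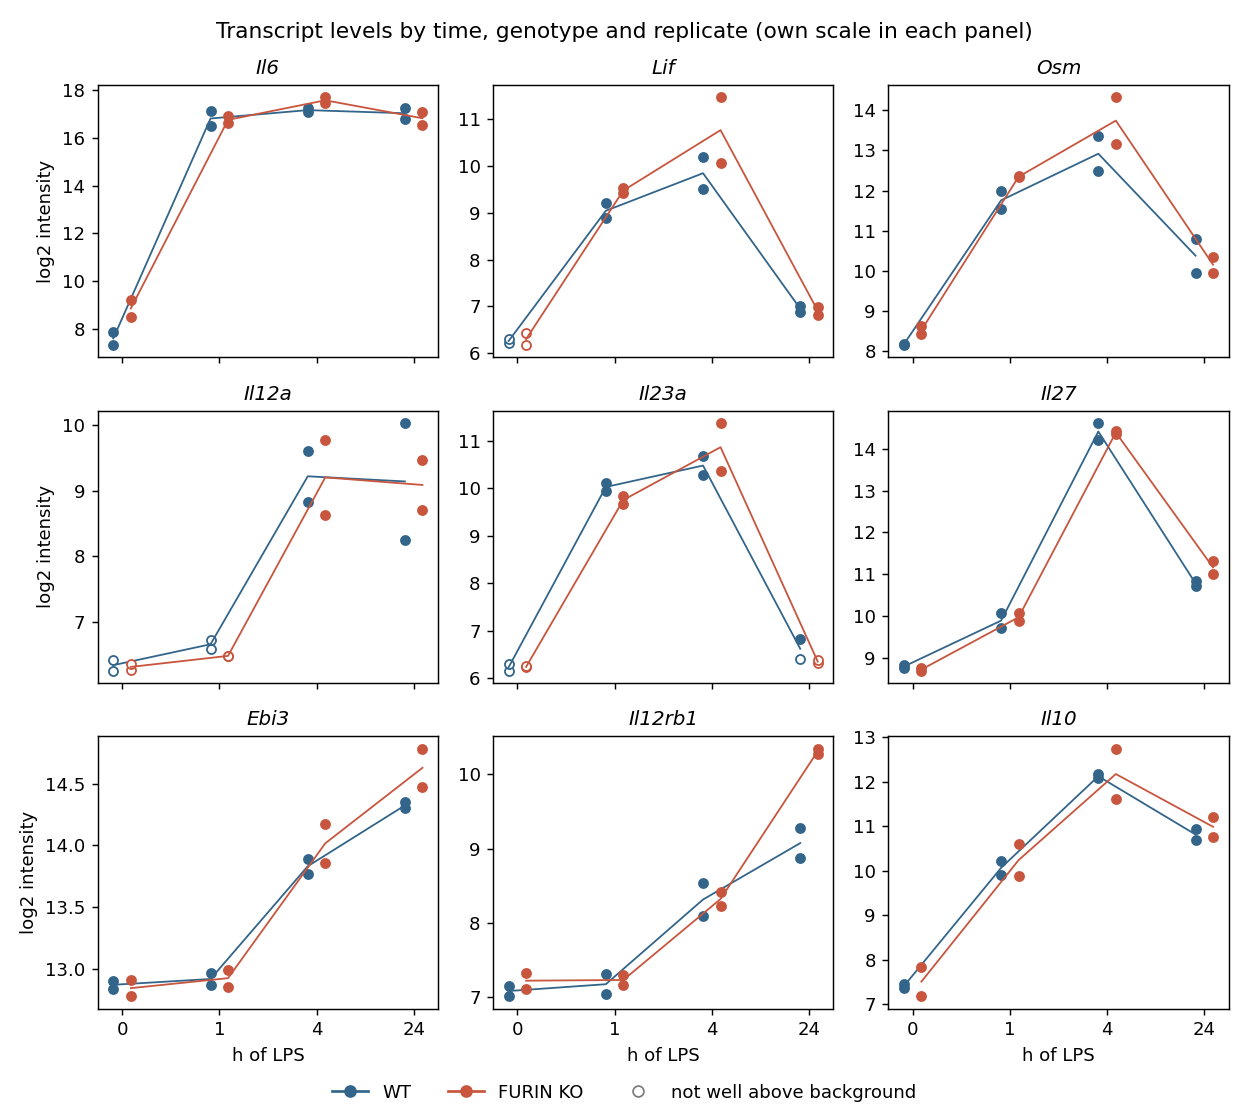
Normalised log2 intensity (vertical axis, own scale in each panel) of the 9 members by h of LPS (horizontal axis, evenly spaced) in WT and FURIN KO macrophages. Each point is 1 channel, lines join the means of 2 replicates, and open points were not well above background. Il6 stays near its 1 h level to 24 h, Lif, Osm, Il23a, Il27 and Il10 are highest at 4 h, and Ebi3 and Il12rb1 are highest at 24 h.

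Il6, the founding cytokine of its group and a driver of the acute phase response, had the largest change at each time in both genotypes among the 6 members that were well above background in unstimulated cells. Its log2 intensity in the 2 unstimulated WT samples was 7.88 and 7.34. It was 17.11 and 16.50 at 1 h, then 17.06 and 17.25 at 4 h, then 16.79 and 17.26 at 24 h. The unstimulated samples lay far below all stimulated ones, whose groups overlapped. The log2 change was 9.20 ± 0.28 (SE, n = 2 per group throughout) at 1 h, 9.55 at 4 h and 9.42 at 24 h, each with the same SE and an adjusted p of 2.5e-10 or smaller. In the WT no later time differed from an earlier one past the threshold, with 0.35 from 1 h to 4 h (adjusted p = 0.438) and -0.13 from 4 h to 24 h (adjusted p = 0.817). In the KO, Il6 was 9.23 and 8.49 unstimulated, then 16.60 and 16.90, then 17.44 and 17.69, then 17.09 and 16.55 at the same times. The log2 change was 7.89, 8.71 and 7.96 at the 3 times. Its step from 1 h to 4 h in the KO was 0.82 (adjusted p = 0.0398), and was not called without LPS 1 h replicate 1 (0.67, adjusted p = 0.181), LPS 4 h replicate 1 (0.94, adjusted p = 0.0856) or LPS 4 h replicate 2 (0.69, adjusted p = 0.204). The fall from 4 h to 24 h was -0.75 (adjusted p = 0.0602), and was called without LPS 24 h replicate 1 (-1.02, adjusted p = 0.0367) or without either unstimulated array (-0.75, adjusted p = 0.0356).

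Lif and Osm, which share gp130 with IL-6, rose early and declined. Lif, known for holding stem cells undifferentiated and for its part in inflammation, was not well above background in any unstimulated sample, so its folds against them are bounds. In the WT its log2 intensity was 9.20 and 8.88 at 1 h, then 10.18 and 9.50 at 4 h, then 6.89 and 7.02 at 24 h. The KO samples read 9.52 and 9.42, then 11.46 and 10.06, then 6.99 and 6.83. All samples at 1 h and 4 h were above all at 24 h. Lif was at least 6.27-fold higher at 1 h (adjusted p = 6e-05) and at least 10.7-fold higher at 4 h (adjusted p = 6.04e-07) than in unstimulated WT cells. In the KO the bounds were at least 8.12-fold (adjusted p = 2.22e-05) and at least 20.4-fold (adjusted p = 7.27e-08). These bounds compare the mean of the bright group with the dimmest level called above background on each array of the dim group, on channel values normalised by loess and Aquantile, whereas fitted changes come from quantile-normalised values. By 24 h Lif was at least 1.47-fold higher in the WT and at least 1.37-fold in the KO, and neither difference was called (adjusted p = 0.133 and 0.201), although without either LPS 4 h array both were (adjusted p = 0.00138 and 0.00347). From 4 h to 24 h Lif fell by 2.89 in the WT (adjusted p = 8.31e-06) and fell by 3.85 in the KO (adjusted p = 5.71e-07). The KO values at 4 h rested on 2 samples that lay apart. Without LPS 4 h replicate 1 the fitted KO change against unstimulated cells was 3.76 and without LPS 4 h replicate 2 it was 5.16, against 4.46 with both, and the change from 4 h to 24 h was -3.15 and -4.55, all called.

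Osm encodes oncostatin M, a product of activated myeloid cells that acts on stromal and endothelial cells. The WT samples had a log2 intensity of 8.16 and 8.20 unstimulated, then 11.99 and 11.53 at 1 h, then 13.35 and 12.48 at 4 h, then 9.96 and 10.81 at 24 h. The KO samples read 8.63 and 8.43, then 12.35 and 12.33, then 14.32 and 13.16, then 10.36 and 9.96. In both genotypes no time point overlapped with another. Osm rose by 3.58 ± 0.35 at 1 h (adjusted p = 1.57e-05), 4.74 at 4 h and 2.20 at 24 h in the WT, and by 3.81, 5.21 and 1.63 in the KO. The step from 1 h to 4 h was 1.16 in the WT (adjusted p = 0.0229) and 1.40 in the KO (adjusted p = 0.00706). The WT step was not called without LPS 1 h replicate 2 (0.93, adjusted p = 0.189) or LPS 4 h replicate 1 (0.73, adjusted p = 0.112), nor the KO step without LPS 4 h replicate 1 (0.82, adjusted p = 0.0706). From 4 h to 24 h Osm fell by 2.53 in the WT (adjusted p = 7.2e-05) and fell by 3.58 in the KO (adjusted p = 3e-06).

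Of the IL-12 group, Il23a, the subunit particular to IL-23, was raised at 1 h and 4 h. It was not well above background in unstimulated cells. The log2 intensity in the WT was 10.12 and 9.94 at 1 h, then 10.68 and 10.28 at 4 h, then 6.40 and 6.83 at 24 h, when 1 of the 2 WT samples was well above background. In the KO cells it was 9.83 and 9.67, then 11.38 and 10.36, then 6.32 and 6.37, when neither was. The 24 h samples lay below all of those at 1 h and 4 h. Against unstimulated cells Il23a was at least 12.2-fold higher at 1 h (adjusted p = 2.1e-07) and at least 16.8-fold higher at 4 h (adjusted p = 8.68e-09) in the WT. The bounds in the KO were at least 9.88-fold (adjusted p = 5.62e-07) and at least 21.7-fold (adjusted p = 3.89e-09). At 24 h no bound is given for the WT, since 1 of the 2 samples was not well above background. The fitted log2 change there was 0.39 (adjusted p = 0.289, not called with all arrays). No fold is given for the KO at 24 h, since neither group was well above background. The step from 1 h to 4 h was 0.45 in the WT (adjusted p = 0.209) and 1.11 in the KO (adjusted p = 0.0025), and the WT step was called without LPS 4 h replicate 2 (0.65, adjusted p = 0.0117).

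Il12a, which encodes a subunit of IL-12, came later. It was not well above background in any unstimulated or 1 h sample of either genotype. In the WT its log2 intensity reached 8.83 and 9.61 at 4 h, then 8.25 and 10.03 at 24 h, and in the KO 9.78 and 8.63, then 9.47 and 8.71. In each pair the brighter value was the Cy5 channel. Il12a at 4 h was at least 6.996-fold higher than in unstimulated WT cells (adjusted p = 0.000287) and at least 6.75-fold higher in the KO (adjusted p = 0.000276). At 24 h it was at least 6.63-fold higher in the WT (adjusted p = 0.000476) and at least 6.18-fold higher in the KO (adjusted p = 0.000545). The fitted log2 change of 2.80 at 24 h in the WT was 3.69 without LPS 24 h replicate 1 (adjusted p = 3.66e-05) and 1.91 without LPS 24 h replicate 2 (adjusted p = 0.00374). From 4 h to 24 h the difference was -0.08 in the WT and -0.12 in the KO, with an SE of 0.49. Its sign turned with single arrays, and it lay between -0.97 and 0.81 in the WT and between -0.69 and 0.46 in the KO without 1 of the 4 arrays concerned, not called in any case.

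Il27, which encodes the subunit p28 of IL-27, had the steepest rise from 1 h to 4 h in both genotypes among the 8 members that were well above background at 1 h. The WT samples stood at 8.82 and 8.75 (log2 intensity) unstimulated, then 10.06 and 9.71 at 1 h, then 14.62 and 14.21 at 4 h, then 10.71 and 10.84 at 24 h. The KO samples stood at 8.69 and 8.74, then 9.88 and 10.06, then 14.42 and 14.36, then 11.32 and 10.998. No time point overlapped with another in either genotype. Against unstimulated cells it rose by 1.10 ± 0.16 at 1 h (adjusted p = 0.000383), 5.63 at 4 h (adjusted p = 1.36e-11) and 1.99 at 24 h (adjusted p = 2.85e-07) in the WT, and by 1.25, 5.68 and 2.45 in the KO. From 1 h to 4 h it rose by 4.53 in the WT and 4.42 in the KO.

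Ebi3, whose product pairs with p28, did not share that time course. WT cells gave a log2 intensity of 12.84 and 12.90 unstimulated, then 12.87 and 12.96 at 1 h, then 13.77 and 13.89 at 4 h, then 14.30 and 14.35 at 24 h. KO cells gave 12.91 and 12.78, then 12.99 and 12.85, then 13.86 and 14.17, then 14.78 and 14.47. The unstimulated and 1 h samples overlapped, and each later group lay above the one before. Ebi3 changed by 0.05 at 1 h in the WT (adjusted p = 0.927) and rose by 0.96 ± 0.13 at 4 h (adjusted p = 2.77e-05) and 1.46 at 24 h (adjusted p = 8.06e-07). In the KO the values were 0.08 (adjusted p = 0.851), 1.17 and 1.79. It rose further from 4 h to 24 h, by 0.49 in the WT (adjusted p = 0.00811) and 0.61 in the KO (adjusted p = 0.00174), while Il27 fell by 3.64 in the WT and fell by 3.23 in the KO over the same interval.

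Il12rb1, the receptor chain that binds the shared subunit of IL-12 and IL-23, was the only receptor among the members and, like Ebi3, was highest at 24 h. Its log2 intensity was 7.01 and 7.16 in unstimulated WT cells, then 7.04 and 7.31 at 1 h, then 8.54 and 8.09 at 4 h, then 8.87 and 9.27 at 24 h. Its KO values were 7.12 and 7.33, then 7.30 and 7.17, then 8.23 and 8.42, then 10.28 and 10.34. The unstimulated and 1 h samples overlapped in each genotype, and the later groups lay above them. Il12rb1 changed by 0.09 at 1 h in the WT (adjusted p = 0.879) and 0.01 in the KO (adjusted p = 0.99). It rose by 1.23 ± 0.17 at 4 h (adjusted p = 3.64e-05) and 1.99 at 24 h (adjusted p = 5.62e-07) in the WT, and by 1.10 (adjusted p = 0.000104) and 3.09 (adjusted p = 9.22e-09) in the KO. The WT rise from 4 h to 24 h, 0.76 (adjusted p = 0.00285), was not called without LPS 24 h replicate 2 (0.56, adjusted p = 0.0633). A dimmer second probe of the gene read 6.62 and 6.59 in unstimulated WT cells and 7.11 and 7.42 at 24 h, and 6.82 and 6.64, then 7.73 and 7.87, in the KO.

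Il10, the anti-inflammatory member, rose at 1 h and was highest at 4 h. Log2 intensity in the WT was 7.38 and 7.45 unstimulated, then 10.22 and 9.91 at 1 h, then 12.16 and 12.08 at 4 h, then 10.95 and 10.68 at 24 h. Log2 intensity in the KO was 7.18 and 7.84, then 9.89 and 10.59, then 11.60 and 12.74, then 10.76 and 11.22. In both genotypes the 4 h samples lay above and the unstimulated samples below all others. Il10 rose by 2.65 ± 0.33 at 1 h (adjusted p = 0.000124), 4.71 at 4 h (adjusted p = 5.86e-08) and 3.40 at 24 h (adjusted p = 2.28e-06) in the WT, and by 2.73, 4.66 and 3.47 in the KO. It fell from 4 h to 24 h with a log2 change of -1.31 in the WT (adjusted p = 0.00725) and -1.18 in the KO (adjusted p = 0.0129). The WT fall was not called without LPS 24 h replicate 2 (-1.17, adjusted p = 0.0647), nor the KO fall without LPS 24 h replicate 1 (-0.95, adjusted p = 0.131) or LPS 4 h replicate 2 (-0.62, adjusted p = 0.2).

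**Figure D2:**
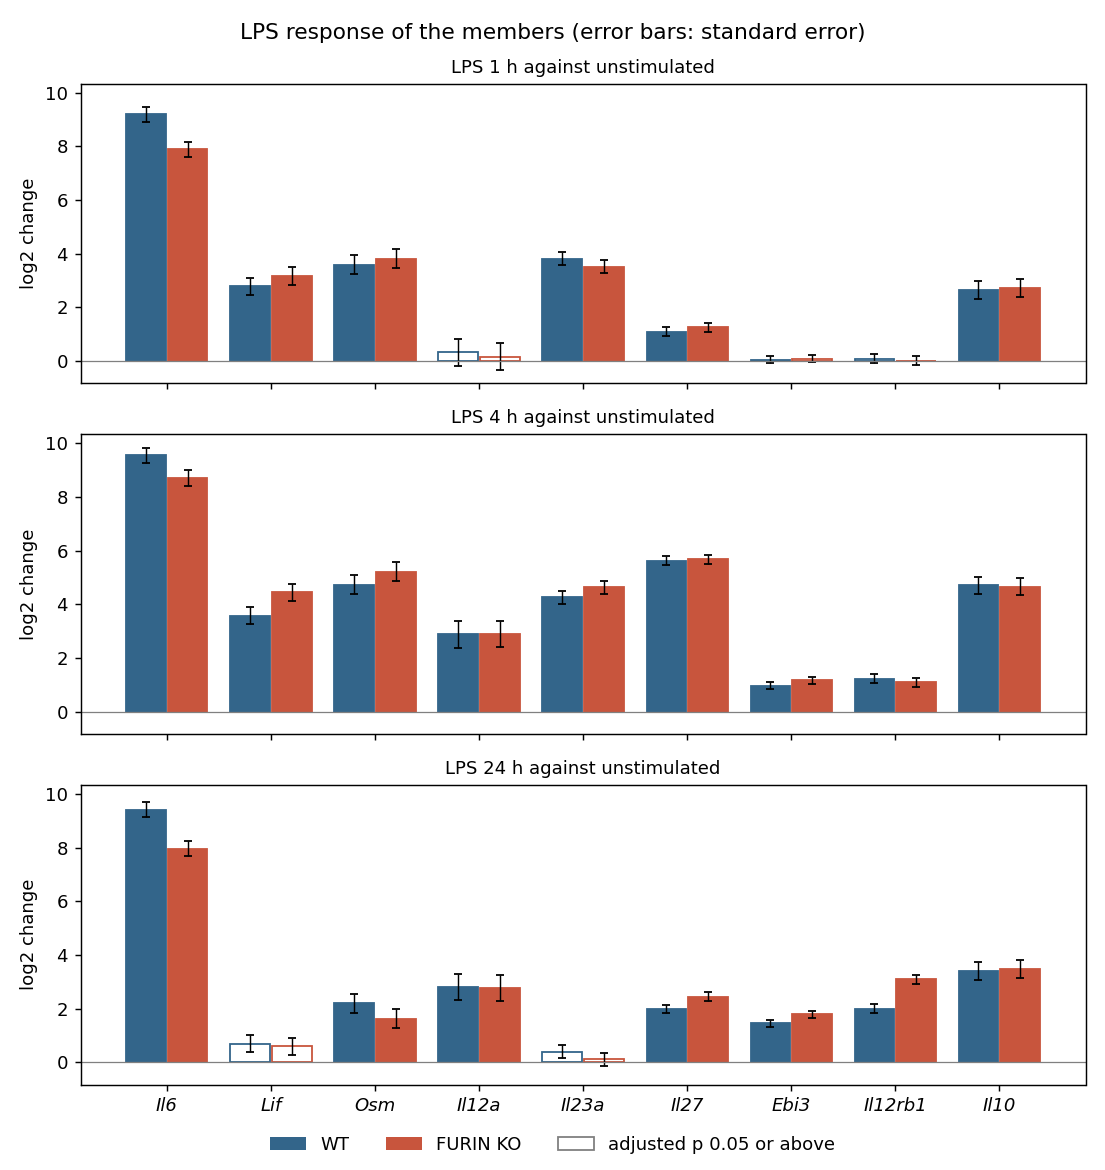
Log2 change against unstimulated cells (vertical axis) of the 9 members (horizontal axis) in WT and FURIN KO macrophages after 1 h, 4 h and 24 h of LPS, from the separate-channel fit. Error bars are standard errors and open bars have an adjusted p of 0.05 or above. Il12a, Ebi3 and Il12rb1 have open bars at 1 h, and Lif and Il23a at 24 h. The bars of Lif, Il12a and Il23a are fitted against unstimulated levels not well above background.

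The members differed in the time of their highest level. From 1 h to 4 h, 6 of 9 members were called higher in the WT and 9 of 9 in the KO, against 29.6% and 31.8% of all genes and transcripts called and 13.9% and 14.9% called higher. These counts moved with single arrays. The WT count was 5 without LPS 1 h replicate 2 or LPS 4 h replicate 1 and 8 without LPS 4 h replicate 2, where Lif (1.14, adjusted p = 0.000197) and Il23a gained calls. The KO count was 7 without LPS 4 h replicate 1, where Il6 and Osm lost theirs, and 8 without LPS 1 h replicate 1 or LPS 4 h replicate 2. The difference between the genotypes in these counts was not tested. From 4 h to 24 h, 5 members were called lower in each genotype (Il10, Il23a, Il27, Lif and Osm), where 29.7% of all in the WT and 30.8% in the KO were called and 14.6% and 15.1% were called lower. The 2 called higher over that interval in each genotype were Ebi3 and Il12rb1. From 1 h to 24 h, 7 of 9 members were called in each genotype, 4 higher (Ebi3, Il12a, Il12rb1 and Il27) and 3 lower (Il23a, Lif and Osm), with 27.7% and 27.3% called over all. The WT difference of Osm between 1 h and 24 h, -1.38 (adjusted p = 0.00896), was not called without LPS 1 h replicate 1 (-1.15, adjusted p = 0.0992) or LPS 24 h replicate 1 (-0.95, adjusted p = 0.128).

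Likeness was read as Pearson's r of log2 intensities across the 16 channels. Among the members it was 0.98 between Il23a and Lif, 0.97 between Lif and Osm and 0.95 between Ebi3 and Il12rb1, and it was -0.22 between Il23a and Il12rb1. Outside the members, and among 20827 named genes, the gene most like Il6 was Il1b (r = 0.999), followed by Ccl3 and Cxcl1. Il23a was most like Rel (r = 0.987), which encodes an NF-kB subunit, then Orai2 and Kdm6b, and Lif was most like Pip5k1a (r = 0.984), then Rel and Cdkn1a. Il12rb1 was most like Ifng (r = 0.981), which encodes interferon gamma, then Gtf2a1 and Apol9a. Osm was most like Nfkbib (r = 0.988), Il27 like Calcrl (r = 0.994), Ebi3 like Alpl (r = 0.990), Il10 like Traf1 (r = 0.984) and Il12a like Egfr (r = 0.978). These values describe 16 channels that share arrays, time points and a normalisation.

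The comparison of FURIN KO with WT cells asked whether the loss of FURIN changes these transcripts. No member was called at an adjusted p under 0.05 in limma's fit of the KO/WT ratios, at any time point or in the mean over times. Over all genes and transcripts 0% were called in unstimulated cells and at 1 h, 0.0135% at 4 h, 0.0244% at 24 h and 0.566% in the mean over times. At an unadjusted p under 0.05, 1 of 9 members passed in unstimulated cells, 2 at 1 h, 3 at 4 h, 3 at 24 h and 4 in the mean over times, each with the KO higher. The shares of all genes and transcripts that passed were 5.78%, 5.48%, 4.3%, 3.43% and 10.7%. The median log2 KO/WT ratio of the 9 members was 0.04, 0.06, 0.19 and -0.04 at the 4 times, against 0.00 over all. The methods' t-test on the same values gave 0 members after adjustment at each time, and 0 of all genes and transcripts. Unadjusted it gave 0 members in unstimulated cells, at 1 h and at 4 h, where 4.58%, 4.75% and 3.05% of all passed, and 1 at 24 h (Il12rb1), where 4.1% passed. With a term for the dye orientation, which is also the replicate number, 1 member was called in unstimulated cells (Il6, adjusted p = 0.0304), 0 at 1 h, 1 at 4 h (Lif, adjusted p = 0.0186), 1 at 24 h (Il12rb1, adjusted p = 0.00486) and 3 in the mean over times (Il12rb1, Lif and Osm, adjusted p = 0.0184, 0.0185 and 0.0488). That fit called 1.06%, 0.574%, 0.566%, 0.585% and 5.99% of all.

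**Figure D3:**
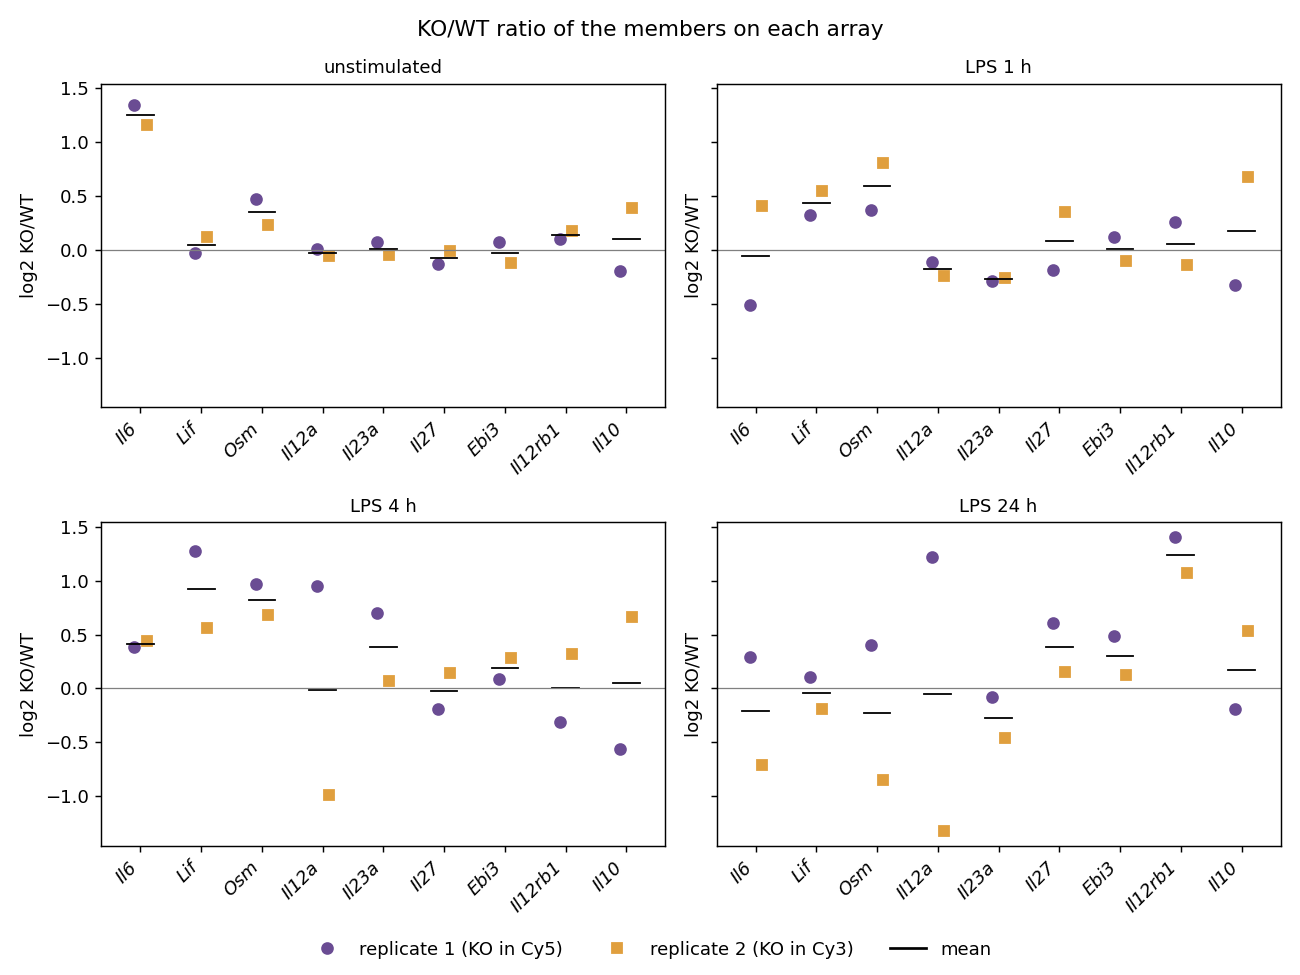
Log2 KO/WT ratio (vertical axis) of each member on the 2 arrays of each time point, with the mean as a line. Circles are replicate 1 with KO in Cy5 and squares are replicate 2 with KO in Cy3. Il6 in unstimulated cells and Il12rb1 at 24 h lie above 1 on both arrays, while Il12a at 4 h and 24 h lies on opposite sides of 0.

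Il6 differed between the genotypes on both arrays of unstimulated cells. Both KO samples, at 9.23 and 8.49, lay above both WT samples, at 7.88 and 7.34, and the log2 ratio was 1.34 and 1.16 on the 2 arrays. The mean was 1.25 ± 0.25, a 2.38-fold difference, with an adjusted p of 0.22 (unadjusted p = 0.000829). At 1 h the ratio was -0.52 and 0.40, at 4 h 0.38 and 0.44 and at 24 h 0.29 and -0.71, so that the genotypes overlapped at 1 h and 24 h. The difference between the LPS response in KO and in WT cells was -1.31 ± 0.35 for Il6 at 1 h, -0.84 at 4 h and -1.46 at 24 h, with adjusted p-values of 1, 1 and 0.753. Beside the unstimulated difference, the summed intensity of the 6 dendritic cell markers was 47182 to 48511 in the KO and 60966 to 67957 in the WT. Most of that sum was Siglech, with a mean log2 intensity of 15.38 in the KO and 15.86 in the WT, and 3 of the 6 markers had a ratio above 0. The 7 mesothelial and fibroblast markers, 5 of them with a ratio above 0, summed to 799 to 924 in the KO and 759 to 778 in the WT, and the 4 eosinophil markers, 3 of them above 0, to 495 to 528 and 476 to 487. The sums of the other lists overlapped. Their part in the Il6 ratio was not tested.

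Il12rb1 was higher in the KO on both arrays at 24 h. The 2 KO samples stood at 10.28 and 10.34 and the 2 WT samples at 8.87 and 9.27, and the log2 ratio was 1.40 and 1.07. The mean was 1.24 ± 0.16, a 2.35-fold difference (adjusted p = 0.0707, unadjusted p = 4.4e-05). Its second probe gave 0.62 and 0.45, the same sign at a smaller size. In unstimulated cells and at 1 h and 4 h the mean ratio of Il12rb1 was 0.14, 0.06 and 0.01. Il12rb1 is also used by T and natural killer cells. At 24 h the summed intensity of the 7 T and NK cell markers was 11393 to 11591 in the KO and 10194 to 10961 in the WT, that of the mast cell markers 3784 to 3882 and 1837 to 3175, and that of the B cell markers 42507 to 48586 and 38942 to 40605. Macrophage markers summed to 145461 to 165553 in the KO and 189670 to 225524 in the WT, and mesothelial and fibroblast markers to 2443 to 2579 and 1902 to 2096. Among the macrophage markers, mean log2 intensity in the KO and WT was 15.48 and 16.29 for Cd14 and 15.04 and 15.57 for Csf1r. For Adgre1 it was 15.72 and 15.76, and for Itgam 12.87 and 12.76. The eosinophil markers, with 1 of 4 above 0, summed to 286 to 292 in the KO and 295 to 301 in the WT. The ratio was above 0 for 5 of 7 T and NK cell markers, 6 of 6 mast cell markers, 6 of 7 B cell markers, 2 of 6 macrophage markers and 5 of 7 mesothelial and fibroblast markers. Their part in the ratio of Il12rb1 was not tested.

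Lif and Osm were higher in the RNA labelled KO on both arrays at 1 h and at 4 h. For Lif the log2 ratio was 0.32 and 0.54 at 1 h. At 4 h it was 1.28 and 0.56, and the KO sample of replicate 2, at 10.06, fell below the WT sample of replicate 1, at 10.18. The mean at 4 h was 0.92 ± 0.16 (adjusted p = 0.26, unadjusted p = 0.000365). For Osm the ratio was 0.37 and 0.80 at 1 h and 0.97 and 0.68 at 4 h, with a mean at 4 h of 0.82 ± 0.25 (adjusted p = 0.846). At 4 h the KO sample of replicate 2, at 13.16, was below the WT sample of replicate 1, at 13.35. In unstimulated cells the Osm ratio was 0.47 and 0.23. At 4 h the dendritic cell markers, 1 of 6 with a ratio above 0 and again mostly Siglech, summed to 39505 to 42031 in the RNA labelled KO and 45074 to 53188 in the WT, and the 5 measured neutrophil markers, 2 of them above 0, to 3911 to 4055 and 4163 to 4758. The sums of the other lists overlapped at 4 h. At 1 h the B cell markers, 7 of 7 with a ratio above 0, summed to 94549 to 105206 in the KO and 62455 to 84163 in the WT, and the mast cell markers, 5 of 6 above 0, to 10835 to 14187 and 10263 to 10412. The mesothelial and fibroblast markers, 6 of 7 above 0, summed to 793 to 855 and 721 to 791. Lower at 1 h were the sums of the dendritic cell markers, 43612 to 48383 in the KO and 51208 to 54050 in the WT, of the neutrophil markers, 6113 to 6229 and 7186 to 7726, and of the macrophage markers, 352880 to 357440 and 360941 to 456425. Their part in these ratios was not tested. At 24 h the ratios of Lif, 0.11 and -0.19, and of Osm, 0.40 and -0.85, lay on opposite sides of 0.

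For the other members the ratios were smaller or turned with the dye. Il23a had a ratio of 0.70 and 0.07 at 4 h (mean 0.39 ± 0.15, adjusted p = 1). At 1 h it was -0.29 and -0.26. At 24 h, Il27 had 0.61 and 0.16 and Ebi3 had 0.48 and 0.12, with both KO samples above both WT samples for each gene and adjusted p-values of 1. Il12a had 0.95 and -0.98 at 4 h and 1.21 and -1.32 at 24 h, and Il10 had -0.19 and 0.39, -0.33 and 0.68, -0.56 and 0.66, and -0.19 and 0.53 at the 4 times. The Cy5 channel was thus the brighter one for Il12a at 4 h and 24 h and the Cy3 channel for Il10 at each time, whichever genotype it held. The SE of the mean ratio was 0.55 for Il12a and 0.32 for Il10. In the difference between the KO and WT responses no member was called at 1 h, 4 h or 24 h, nor was any gene or transcript (0% at each). At an unadjusted p under 0.05, 1, 2 and 2 members passed, against 1.39%, 2.9% and 3.33% of all. Il6 passed at each time, with a smaller rise from unstimulated cells in the KO. Lif at 4 h (0.88 ± 0.23, from unstimulated levels not well above background) and Il12rb1 at 24 h (1.10 ± 0.23) passed with a larger one. The Il6 differences are not independent, since each subtracts the same unstimulated KO/WT ratio (mean 1.25). Under LPS the mean Il6 ratios themselves, in order of time, were -0.06, 0.41 and -0.21, none of them called. A lower Il6 level in the KO after LPS was thus not shown.

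Other genes of these pathways were read from fixed lists. Of 10 other ligands of the IL-6 and IL-10 families and their relatives, 3, 6 and 7 were called higher in the WT at 1 h, 4 h and 24 h, and 2, 6 and 5 in the KO, and none was called lower. Clcf1, a cytokine of the IL-6 group, rose by 2.34 at 1 h in the WT (adjusted p = 9.92e-07) and 2.33 in the KO. Il19, a cytokine of the IL-10 family, was not well above background in unstimulated cells. It was at least 2.46-fold higher at 1 h (adjusted p = 0.000561), at least 56.1-fold at 4 h and at least 124-fold at 24 h in the WT, and at least 2.77-fold, 145-fold and 335-fold higher in the KO. Il22, another relative of IL-10 and better known from lymphocytes, was not well above background in unstimulated WT cells and was called higher in the WT at 4 h and 24 h (adjusted p = 5.75e-07 and 2.16e-07). In the KO, where 1 of the 2 unstimulated samples was well above background, Il22 was called higher at the same times (adjusted p = 7.93e-07 and 2.04e-07).

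Of 16 receptor genes, 1, 1 and 2 were called higher and 2, 3 and 8 lower in the WT at 1 h, 4 h and 24 h, and in the KO 1, 3 and 2 higher and 2, 4 and 7 lower. Over all genes and transcripts too, more were called lower than higher in the WT, 1896 against 1252, 7120 against 5717 and 6271 against 4980. Il6ra, the IL-6 binding chain, fell by 3.38 at 4 h in the WT (adjusted p = 3.5e-10) and fell by 3.60 in the KO. At 24 h the change of Il11ra1, the IL-11 binding chain, was -2.80 in the WT and -2.47 in the KO, and that of Il27ra, the receptor of IL-27, was -2.40 and -2.02, all called. Osmr, the receptor chain for oncostatin M, was not well above background in unstimulated cells and was at least 5.28-fold higher at 4 h in the WT (adjusted p = 0.00107) and at least 7.84-fold in the KO (adjusted p = 9.67e-05). Its fitted WT change at 4 h was 1.80 without LPS 4 h replicate 1 and 3.15 without LPS 4 h replicate 2, both called. Il10ra, the IL-10 binding chain, rose at 1 h by 0.85 in the WT (adjusted p = 0.00506) and 1.10 in the KO (adjusted p = 0.000932), and the WT value was not called without LPS 1 h replicate 1 (0.72, adjusted p = 0.0628).

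Of 11 JAK and STAT genes, 8 were called higher and 3 lower at 4 h in the WT and 7 higher and 2 lower in the KO. At 24 h the counts were 5 and 3 in each genotype, and at 1 h they were 2 and 1 in the WT and 3 and 1 in the KO. Jak2 rose by 3.27 at 4 h in each genotype, Stat2, which serves interferon signals, by 2.62 and Stat5a by 2.06 in the WT and 2.09 in the KO. Of 12 targets and feedback genes of STAT3, 7, 11 and 10 were called higher in the WT and 7, 11 and 10 in the KO, with 1 called lower, at 24 h in the WT. Socs3, the feedback inhibitor of gp130 signalling, rose by 3.87, 4.73 and 3.87 in the WT and by 3.79, 4.77 and 3.93 in the KO at the 3 times. Socs1 rose by 5.67 at 4 h and 5.63 at 24 h in the WT.

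Of 21 regulators of these cytokine transcripts, 14, 18 and 10 were called higher in the WT and 2, 2 and 5 lower, and in the KO 14, 18 and 9 higher and 3, 2 and 2 lower. Nfkbiz, which encodes the NF-kB cofactor needed for Il6 and Il12b transcription, rose by 5.89, 4.33 and 2.31 in the WT and by 5.92, 4.68 and 2.50 in the KO. Zfp36, whose product destabilises cytokine mRNA, rose by 4.06 at 1 h in the WT and 3.85 in the KO. Zc3h12a, which encodes an RNase acting on Il6 mRNA, rose by 3.30 at 4 h in the WT and 3.40 in the KO.

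**Figure D4:**
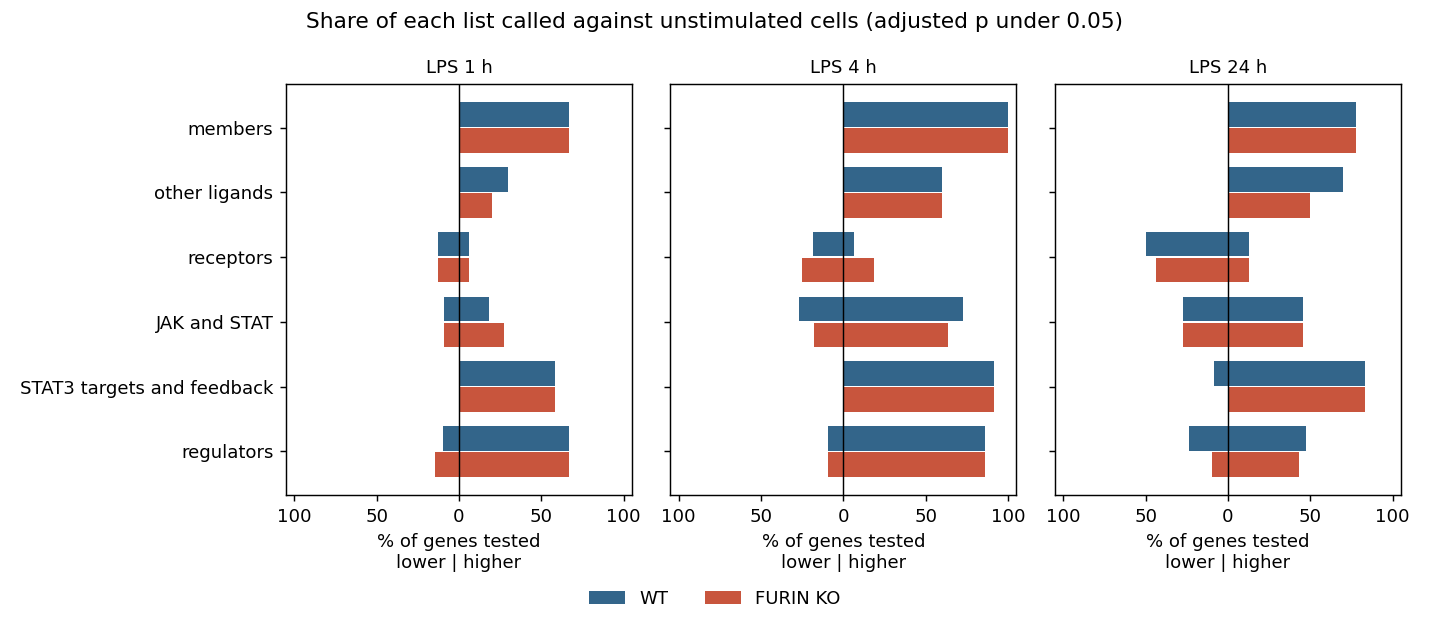
Share of the genes of each list, in percent (horizontal axis, lower to the left and higher to the right of 0), called at an adjusted p under 0.05 against unstimulated cells after 1 h, 4 h and 24 h of LPS in WT and FURIN KO macrophages. The members have no bar to the left, and at 24 h the receptors have 8 of 16 genes lower in the WT and 7 of 16 in the KO.

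Between the genotypes, no gene of the 5 lists was called at a single time point, and 3 were called in the mean over times, without a term for the dye orientation. With that term, which is also the replicate number, 5 of the 70 genes were called in unstimulated cells (Egr1, Ets2, Fcgr1, Fosl1 and Il1rn), 1 at 1 h (Stat4), 5 at 4 h (Il11ra1, Il19, Il1rn, Lifr and Stat4), 2 at 24 h (Il19 and Irf1) and 14 in the mean over times. All of these were higher in the KO apart from Il11ra1 at 4 h and 3 of the 14. Genes in these counts other than Egr1, Il19, Lifr and Il11ra1 were named after their values were seen. Over all genes and transcripts, the fit with that term called 1.06% in unstimulated cells, 0.574% at 1 h, 0.566% at 4 h and 0.585% at 24 h. In the mean over times it called 5.99%, against 0.566% without the term. The mean log2 intensity of Il19 was 6.21 and 6.18 in unstimulated WT and KO cells, 12.25 and 13.58 at 4 h and 13.37 and 14.86 at 24 h. Its log2 KO/WT ratio was 1.36 and 1.31 at 4 h (adjusted p = 0.127, and 0.0079 with the dye term) and 1.03 and 1.95 at 24 h (adjusted p = 0.0665, and 0.00406 with the dye term), and 0.75 ± 0.09 in the mean over times (adjusted p = 0.0214). Lifr, the receptor chain of LIF, had a ratio of 1.26 and 1.15 at 4 h (adjusted p = 0.0723, and 0.00185 with the dye term) and 0.53 ± 0.07 in the mean over times (adjusted p = 0.0263), and the mean over all its probes gave 0.26, which was not called. Egr1, an immediate early transcription factor, had a ratio of 1.07 and 0.81 in unstimulated cells (adjusted p = 0.11, and 0.00655 with the dye term) and 0.39 ± 0.06 in the mean over times (adjusted p = 0.0474). The direction of the mean over times held in all 15 alternatives tried, leaving out each array included, but Il19 was called in 8 of them, Lifr in 8 and Egr1 in 3. Il19 was not called without either array of the unstimulated cells, 1 h or 4 h (0.71 to 0.79, adjusted p = 0.0557 to 0.107), nor in the mean of all its probes (0.75, adjusted p = 0.0756). At single times the Il19 ratio stayed at 1.33 at 4 h without either LPS 24 h array. At 24 h it was 1.95 without LPS 24 h replicate 1, from the 1 array left there. Lifr was not called without either unstimulated or 4 h array, LPS 1 h replicate 2 or LPS 24 h replicate 2 (0.47 to 0.58, adjusted p = 0.0728 to 0.103). Without each array other than LPS 24 h replicate 1, Egr1 was not called (0.32 to 0.42, adjusted p = 0.0912 to 0.193), nor was it under Aquantile, loess alone, the software's processed signals, the mean of all probes or the authors' matrix (0.38 to 0.41, adjusted p = 0.0568 to 0.0598).

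**Figure D5:**
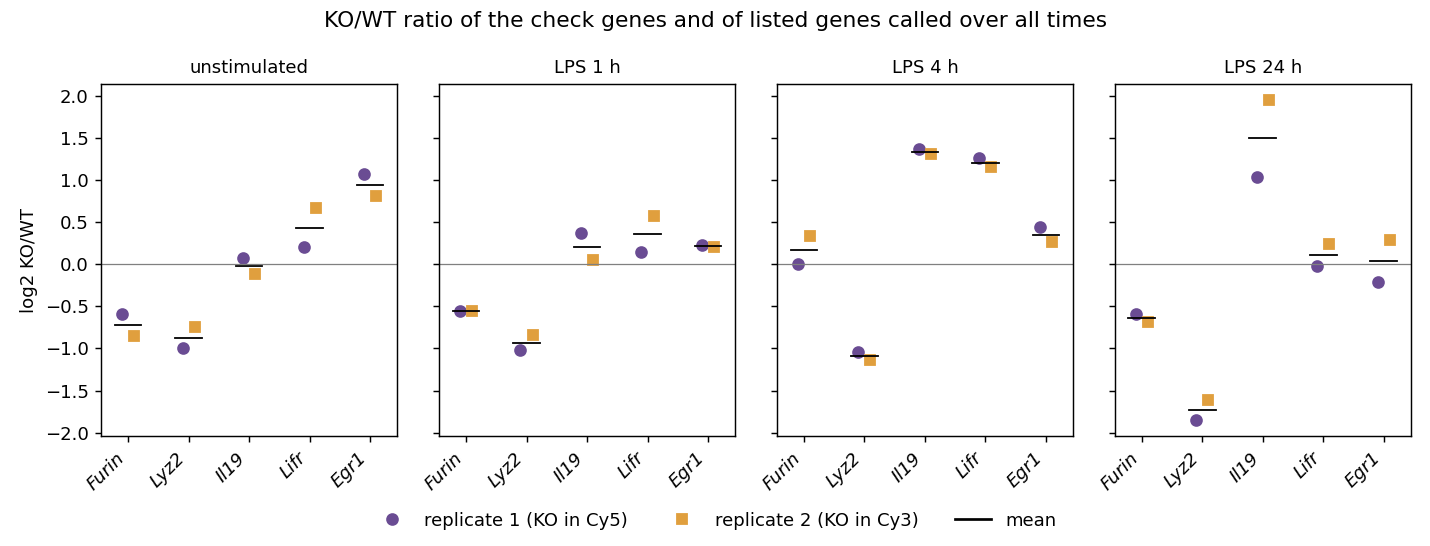
Log2 KO/WT ratio (vertical axis) on each array of Furin and Lyz2, which check the genotype, and of the 3 listed genes called in the mean over times, at the 4 time points. Circles are replicate 1 with KO in Cy5, squares replicate 2 with KO in Cy3, and lines the means. Furin lies below 0 except at 4 h, Lyz2 below 0 throughout, and Il19 above 1 on all 4 arrays of 4 h and 24 h.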

How the data were processed

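RNA of adherent peritoneal macrophages (50 ng, amplified by the authors) was hybridised to 8 two-colour mouse arrays on 1 slide, read in 1 scan, so no batch could be tested. The deposited intensity values were spot and background medians written per array by Agilent Feature Extraction 10.7.3 (submitters' processing notes), before any normalisation. The authors also deposited a matrix of log2 Cy5/Cy3 ratios, loess and quantile normalised in limma, which served here as an alternative.

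Background was corrected by normexp (offset 50), followed by loess within and quantile normalisation between arrays in limma 3.58.1 (R 4.3.3, statmod 1.5.0). Outlier spots were set to missing, spots of a probe averaged, and the brightest probe kept per gene. Of 55681 gene probes, 27509 were named through the RefSeq table, giving 20887 named genes, and 0 columns of other samples were left out. KO/WT ratios were fitted with lmFit and eBayes (36947 tested after a minimum of 6 on mean log2 intensity, 4 residual degrees of freedom). LPS effects came from the separate-channel fit (lmscFit, 36927 tested, within-spot correlation 0.087 from 5000 genes, seed 1). The p-values were adjusted by Benjamini-Hochberg over all tested, with a threshold of 0.05. They measure only the spread between arrays of the 2 labelled biological replicates, pooled over the time points. That spread also holds any dye effect, since the dye orientation went with the replicate number. The methods' t-test, another background correction, other normalisations, no intensity filter, the mean of all probes, a dye term, a replicate block and omission of each array were alternatives. Omission of an array left 1 array at its time point, so p-values there came from the spread at the other times. Fits were tested on simulated data.

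The text names all members, the 3 listed genes with the largest called change for each list and comparison at most, and the 3 genes most correlated with a member. Members, lists and rules were chosen with earlier results of these data known, and the comparison of 24 h with 1 h was added after values had been seen. The number of arrays limits the precision.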

Additional observations from a re-analysis of the deposited data

How the results depend on the processing

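No member's called value reversed under any alternative. Of the members' called values, 596 of 601 stayed past the threshold under the other settings and 684 of 696 without an array, and those lost without an array stand beside the results. Among values that had not been called, 18 of 675 changed sign under other settings and 56 of 744 without an array.

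The replicate number as a block, which is also the dye orientation, gave 1 member called between KO and WT in unstimulated cells, 1 at 4 h, 1 at 24 h and 3 in the mean over times, against 0 without it. It also raised the count over all genes and transcripts, to 391, 209, 216 and 2212. The replicate difference correlated between time points with r from 0.475 to 0.679 over 6 pairs of times. With 2 arrays a time and 1 dye orientation per number, a pairing of samples and a dye effect cannot be told apart, and the cause was not tested.

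The step of Il6 from 1 h to 4 h in the KO was not called under Aquantile (0.78, adjusted p = 0.0835), with a dye term (0.82, adjusted p = 0.0573) or with loess alone (0.86, adjusted p = 0.0561). The fall of Il10 from 4 h to 24 h was not called with loess alone, at -0.79 in the KO and -0.92 in the WT, while with a dye term its difference between 24 h and 1 h was called (0.75 in each genotype). Under the software's processed signals Il12a fell below the intensity minimum and has no value there, and the 24 h changes of Lif (adjusted p = 4.02e-05 in the WT, 8.58e-05 in the KO) and Il23a (adjusted p = 0.00172 in the WT) were called. That setting also widened other changes, to 6.57 for Lif and 7.52 for Il23a at 1 h in the WT, against 2.78 and 3.80, to 5.55 for Il10 at 4 h in the WT, against 4.71, and to 3.06 in the WT and 3.85 in the KO for Il12rb1 at 24 h. For Il6 in the WT the processed signals gave 9.89 at 1 h, 10.21 at 4 h and 10.09 at 24 h, against 9.20, 9.55 and 9.42. Also in the WT they gave 6.36 for Socs1 at 4 h, against 5.67, and -3.00 for Il27ra at 24 h, against -2.40. Averaging both probes of Il12rb1 instead lowered its change at 24 h to 1.32 and 2.08, against 1.99 and 3.09. All of these stayed called. Of 1326 values of the named pathway genes after LPS, 48 lost their call, all at 1 h. Unstimulated signals not well above background limit the folds of Lif, Il12a and Il23a to bounds.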
